A study of Mus musculus with 12 samples.

Results

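Vas deferens and epididymis markers are 6 genes, Akr1b7, Crisp1, Spink8, Gpx5, Rnase10 and Lcn5, chosen by symbol and followed through every prostate library of the series. All 6 had a row among the 19091 genes of the F1 table, and 4 had one among the 26023 genes of the F3 table, where Gpx5 and Lcn5 had no row. The libraries were stranded poly-A RNA sequencing of mouse prostate. Of the 12 samples in the labels, 11 were analysed here. The F1 chlordecone group (3 libraries) was made up of sons of females given chlordecone (kepone), an organochlorine insecticide, at 100 µg/kg/day from E6.5 to E15.5 (embryonic days), and the F1 control group (2 libraries) of control males of that generation. The F3 chlordecone group (3 libraries) came from crosses continued from the exposed F1 animals, with dosing described for the F0 females alone, and it was set against 3 F3 control libraries. The labels state neither strain, age nor what the controls received, and they do not say whether a sample is 1 animal or a pool, or which samples share a dosed female. The p-values below therefore measure only the spread between these samples, which may be technical.

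The epididymis and the vas deferens form the duct that carries sperm from the testis towards the urethra, and the vas deferens ends close to the prostate and the seminal vesicle. Their epithelium secretes proteins that coat, protect and mature sperm, under the control of androgens and in a sequence of segments that each have their own products. Akr1b7 is an aldo-keto reductase that clears reactive aldehydes, known as the vas deferens protein of the mouse and also made in the adrenal cortex. Crisp1 is a cysteine-rich secretory protein that binds to sperm in the epididymis, and Spink8 belongs to the Kazal family of serine protease inhibitors. Gpx5, an epididymal glutathione peroxidase, Rnase10, a secreted relative of ribonuclease A, and Lcn5, a lipocalin that binds retinoic acid, are products of the head of the epididymis.

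The sequences before the annotated starts are shown for Akr1b7 and Crisp1, the pair that was high in the same F1 libraries, and for Rnase10, whose counts did not follow them. They come from RefSeq (GRCm38.p6), which held a promoter for 5 of the 6 genes, and each is the 250 bases before the start, 5′ to 3′ on the strand of the gene. Capitals mark TGTTCT or its reverse complement AGAACA, the hexamer at the core of elements bound by the androgen and glucocorticoid receptors.
Akr1b7 (chr6:34412112-34412361, plus strand): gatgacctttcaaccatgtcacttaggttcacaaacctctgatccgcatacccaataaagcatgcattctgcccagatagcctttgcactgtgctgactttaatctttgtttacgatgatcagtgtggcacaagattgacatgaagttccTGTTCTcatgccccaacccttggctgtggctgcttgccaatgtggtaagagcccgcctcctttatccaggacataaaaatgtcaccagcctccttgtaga
Crisp1 (chr17:40319208-40319457, minus strand): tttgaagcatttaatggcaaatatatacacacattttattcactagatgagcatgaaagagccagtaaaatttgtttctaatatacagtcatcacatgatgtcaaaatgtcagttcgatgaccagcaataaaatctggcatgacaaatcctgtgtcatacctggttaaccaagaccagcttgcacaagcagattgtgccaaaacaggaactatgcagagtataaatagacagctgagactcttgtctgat
Rnase10 (chr14:51007501-51007750, plus strand): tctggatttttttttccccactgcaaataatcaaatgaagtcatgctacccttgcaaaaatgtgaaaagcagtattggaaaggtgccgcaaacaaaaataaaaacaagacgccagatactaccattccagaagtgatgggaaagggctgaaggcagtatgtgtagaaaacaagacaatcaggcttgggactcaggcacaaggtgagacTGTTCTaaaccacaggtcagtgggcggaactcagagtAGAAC

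Akr1b7 held the hexamer once, its first base at position -100 from the start, on the strand of the gene. An androgen response element has been described in the proximal promoter of this gene. Crisp1 held it on the other strand at position 21 after the start, outside the stretch shown, which has no capitals. Rnase10 held it on both strands, at -42 and -5. The last run of capitals in its line is cut off, because that match ends just past the stretch shown. Within 250 bases before and 50 after the start, searched on both strands, 3 of the 5 genes held TGTTCT, against 19.0% of 32851 mouse promoters of that length. The nuclear receptor hexamer AGGTCA was found in 2 of the 5 (16.3% of all promoters) and the ETS core AGGAAG in 2 of the 5 (35.4%). Rnase10 was searched at a pair of annotated starts and a match at either counted, while the shares of all promoters are per window. Its AGGAAG lay only in the window of the start not shown. The windows of Gpx5 and Lcn5 held none of the 3 motifs. A match describes letters in the window and not a bound site.

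**Figure D1:**
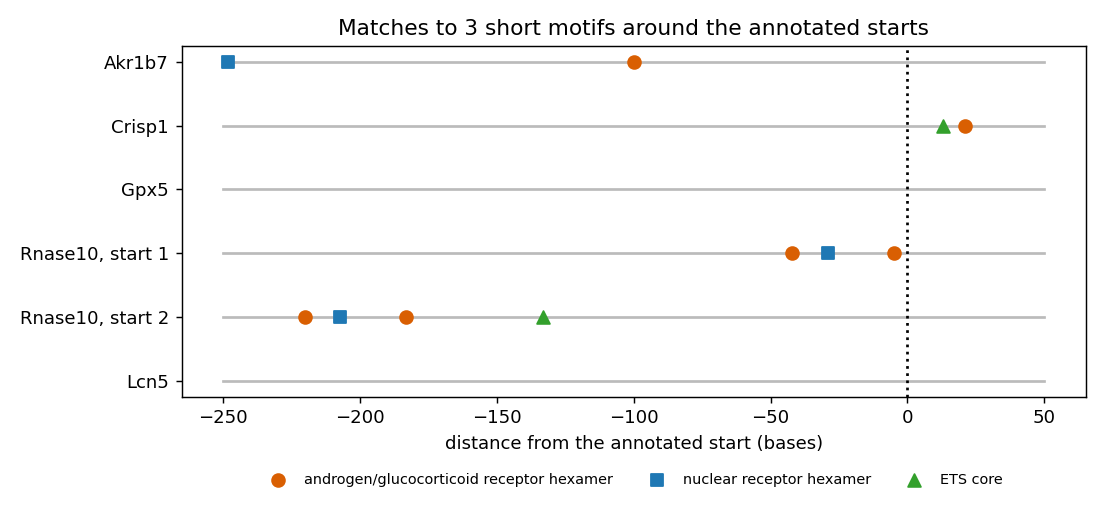
Matches to 3 six-letter motifs (colours and shapes) in the windows around the annotated starts of 5 genes, by distance from the start in bases; Rnase10 has a pair of annotated starts whose windows overlap. The receptor hexamer TGTTCT lies at -100 in Akr1b7 and at 21 in Crisp1, and the windows of Gpx5 and Lcn5 are empty.

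Total counts were 17228539 to 28061760 in the F1 libraries and 71672418 to 114762135 in the F3 libraries. Levels are given in CPM, counts scaled to a common library size with TMM. Probasin (Pbsn), the defining product of the mouse prostate, was at 37323 to 86408 CPM in every F1 library. Svs4, a seminal vesicle protein, took 29.8% of the counts of F1 chlordecone 2. By chi-square per gene, the F1 controls differed from each other less than any other F1 pair, at 17.0. Sampling noise alone gives about 1, and the other F1 pairs were at 282 to 632. The controls were counted as 2 samples. The r of log2 CPM across genes was 0.952 between F1 chlordecone 1 and 3 and 0.842 to 0.904 in all other F1 pairs.

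Akr1b7 was the gene of this group with the widest range in F1. It lies on chromosome 6 from 34412334 to 34423142 (GENCODE M21, GRCm38; 10 exons). Its counts were 292 and 315 in controls 1 and 2, and 734044, 609 and 189879 in chlordecone 1, 2 and 3. Scaled, these were 15.3 and 14.8 CPM in controls, and 29064, 33.2 and 8741 CPM in chlordecone libraries. Chlordecone 1 and 3 stood apart from all others, and chlordecone 2 lay just above both controls. Relative to the control mean, the levels were 1934-fold higher in chlordecone 1, 2.21-fold higher in chlordecone 2 and 582-fold higher in chlordecone 3. The gene took 2.89% of all counts in chlordecone 1 (exact 95% binomial interval 2.89% to 2.90%) and 0.677% in chlordecone 3 (0.674% to 0.680%), where it ranked 6th and 9th of all genes by CPM. These intervals cover counting error only. The closest relatives, Akr1b10 (89.4% identical to Akr1b7 over 963 aligned bases of transcript) and Akr1b8 (86.9% over 926), can share reads with it. They reached 44.3 and 9.46 CPM in chlordecone 1. In the annotation Gm13857 overlaps Akr1b7 on the other strand, and it had no row in the F1 table.

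Crisp1 had the same order of chlordecone libraries as Akr1b7, and both controls below them. It lies on chromosome 17 from 40293758 to 40319207 (8 exons). Its level was 8.70 and 10.1 CPM in the controls, from 166 and 215 counts. In chlordecone 1, 2 and 3 it was 15223, 68.5 and 5188 CPM, from 384487, 1256 and 112713 counts. The levels were 1622-fold, 7.30-fold and 553-fold above the control mean, and all 3 lay above both controls. Crisp3, 91.3% identical to Crisp1 over 1397 aligned bases, had 0 counts in both controls and in chlordecone 2, 22 in chlordecone 1 and 12 in chlordecone 3.

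The ratio between the counts of Crisp1 and Akr1b7 set 1 library apart. There were 0.568 and 0.683 Crisp1 counts per Akr1b7 count in controls 1 and 2 (exact 95% intervals 0.467 to 0.690 and 0.571 to 0.814). The ratio was 0.524 in chlordecone 1 (0.522 to 0.526) and 0.594 in chlordecone 3 (0.589 to 0.598). In chlordecone 2 it was 2.06 (1.87 to 2.28), above the intervals of the other libraries, so that Crisp1 exceeded Akr1b7 there alone. The ratio was therefore of similar size in controls and in the pair of chlordecone libraries whose levels were at least 553-fold higher.

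Spink8 was present in every library, with a narrower range. It lies on chromosome 9 from 109812280 to 109826633 (6 exons). Its level was 157 and 164 CPM in the F1 controls and 2466, 94.1 and 1034 CPM in chlordecone 1, 2 and 3. Chlordecone 1 and 3 were 15.4-fold and 6.45-fold above the control mean, and chlordecone 2 was at 0.588 of it, below both controls, so the groups overlapped. For each Akr1b7 count there were 10.2 and 11.1 Spink8 counts in the controls, 2.83 in chlordecone 2, and 0.0848 and 0.118 in chlordecone 1 and 3.

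The 3 products of the head of the epididymis had at most 83 counts in any F1 library, also in chlordecone 1 and 3. Gpx5 (chromosome 13, 21286429 to 21292731) had 4 and 0 counts in controls and 8, 17 and 83 in chlordecone 1, 2 and 3, at most 3.82 CPM. Its highest value was in chlordecone 3 and not in chlordecone 1. Rnase10 (chromosome 14, 51007751 to 51010758) had 0 and 18 counts in controls and 7, 22 and 5 in chlordecone libraries, the highest of them 22 counts in chlordecone 2. Lcn5 (chromosome 2, 25657952 to 25661977) had 12 and 0 counts in controls and 32, 0 and 2 in chlordecone libraries, at most 1.27 CPM. For Rnase10 and Lcn5 the groups overlapped, and their highest libraries were chlordecone 2 for Rnase10 and chlordecone 1 for Lcn5. A count of 0 allows up to 3 counts, which is 0.119 to 0.164 CPM in these libraries.

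**Figure D2:**
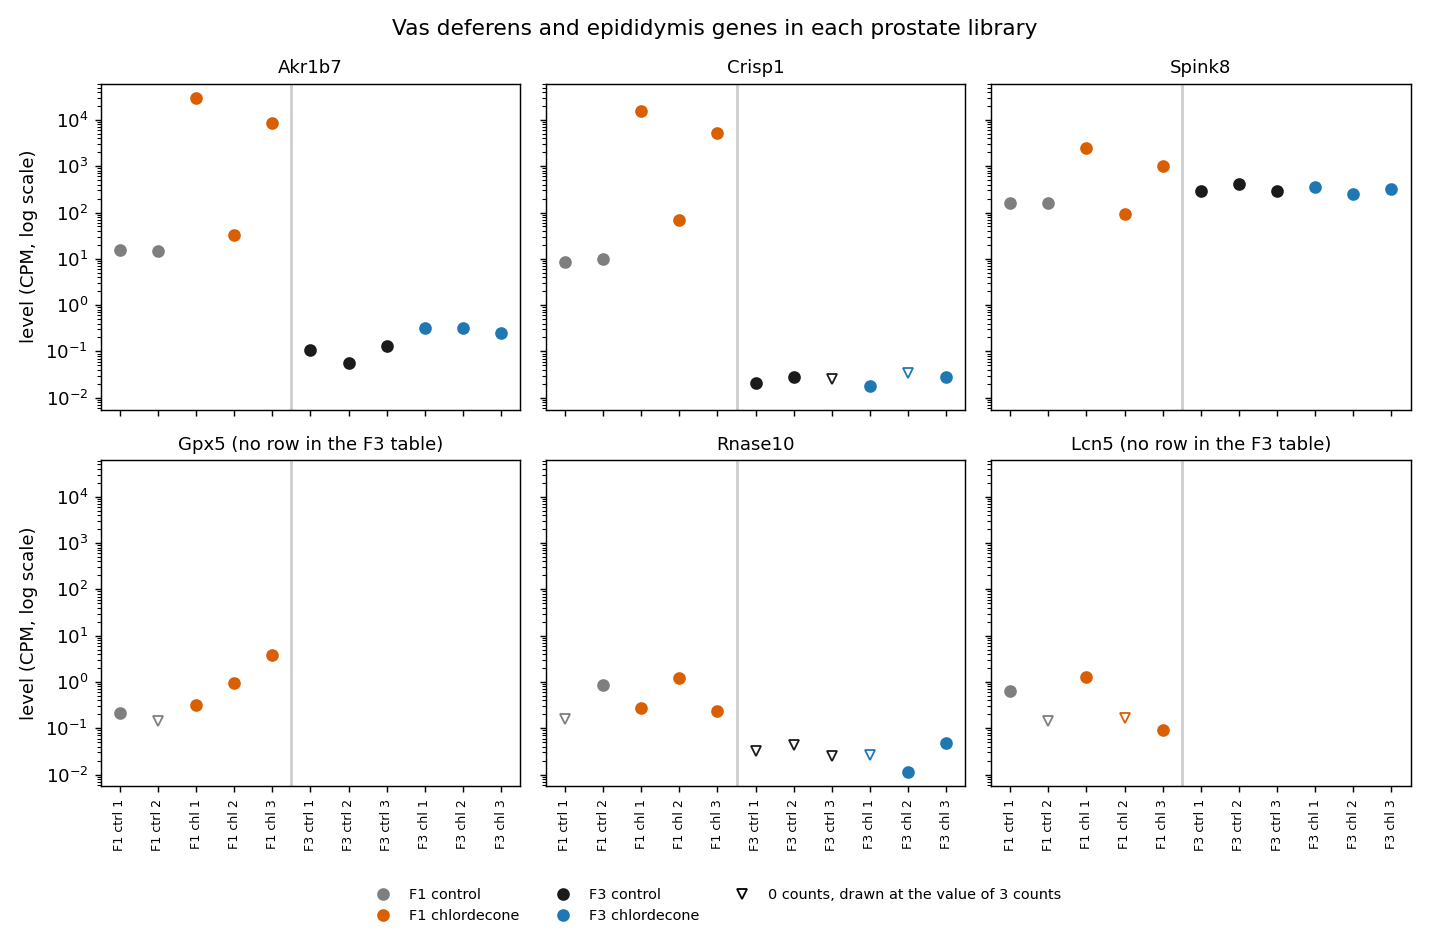
Level of each gene (CPM, log scale) in each library, controls and chlordecone libraries of F1 left of the line and of F3 right of it; open triangles are libraries with 0 counts, drawn at the value of 3 counts. Akr1b7 and Crisp1 stand at 5188 CPM or more in F1 chlordecone 1 and 3 and below 70 CPM elsewhere, while Spink8 stays between 94.1 and 2466 CPM in all 11 libraries.

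Per kilobase of exon, the F1 control levels were 195 ± 5.97 CPM for Spink8, 11.7 ± 0.297 for Akr1b7 and 6.63 ± 0.688 for Crisp1 (SD, n = 2), each apart from its neighbour by more than the spread. Lcn5 at 0.356 ± 0.504, Rnase10 at 0.253 ± 0.358 and Gpx5 at 0.0626 ± 0.0885 followed and did not differ beyond theirs. In F1 chlordecone libraries the order was Akr1b7 at 9846 ± 11630 CPM per kilobase, Crisp1 at 4821 ± 5444, Spink8 at 1459 ± 1455, Gpx5 at 1.01 ± 1.12, Lcn5 at 0.514 ± 0.801 and Rnase10 at 0.342 ± 0.328 (SD, n = 3). Spink8 and Gpx5 were apart, the lowest Spink8 library being at 115 CPM per kilobase and the highest Gpx5 library at 2.28. The other neighbours in that order did not differ beyond their spread.

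None of the 6 genes passed the threshold in F1, a Benjamini-Hochberg adjusted p under 0.05 in edgeR's quasi-likelihood test over 17804 genes, which 0.0281% of all genes passed. The estimated log2 fold changes, chlordecone over control, were 9.71 for Akr1b7 (SE 2.50, adjusted p = 0.227), 9.51 for Crisp1 (SE 2.15, adjusted p = 0.199) and 2.90 for Spink8 (SE 1.09, adjusted p = 0.370). They were 3.96 for Gpx5 (SE 1.81, adjusted p = 0.454), 0.41 for Rnase10 (SE 1.82, adjusted p = 0.962) and 0.55 for Lcn5 (SE 2.22, adjusted p = 0.958). By size of the estimate Akr1b7 and Crisp1 ranked 11th and 12th of all genes tested, and 0.758% of genes had an estimate above 5. At an unadjusted p under 0.05 there were 3, Akr1b7, Crisp1 and Spink8, and 7.93% of all genes were higher at that level. All 3 chlordecone libraries lay above both controls for Akr1b7, Crisp1 and Gpx5, as they did for 16.2% of all genes. Gpx5 passed the filter on low counts only through chlordecone libraries, so it had to be higher there. Rnase10 and Lcn5 passed it through 1 control and 1 chlordecone library each.

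The absence of a call in F1 depended on the method and on chlordecone 2. DESeq2 called Akr1b7 (adjusted p = 0.000278) and Crisp1 (adjusted p = 3.51e-05), and it called 3.89% of all genes. Without chlordecone 2, edgeR called 3 of the 6, and 2604 of all 17394 genes tested. The 3 were Akr1b7 at a log2 fold change of 10.29 (SE 0.67, adjusted p = 0.000689), Crisp1 at 10.08 (SE 0.61, adjusted p = 0.000689) and Spink8 at 3.44 (SE 0.38, adjusted p = 0.00332). A further fit, chosen once the values were known, left out chlordecone 1 and 3 together. Akr1b7 (adjusted p = 0.0174, edgeR) and Crisp1 (log2 fold change 2.86, adjusted p = 1.62e-06) were then higher, and Spink8 turned to -0.77 (adjusted p = 0.0118). Only 1 chlordecone library was then left, and the spread came from the 2 controls.

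**Figure D3:**
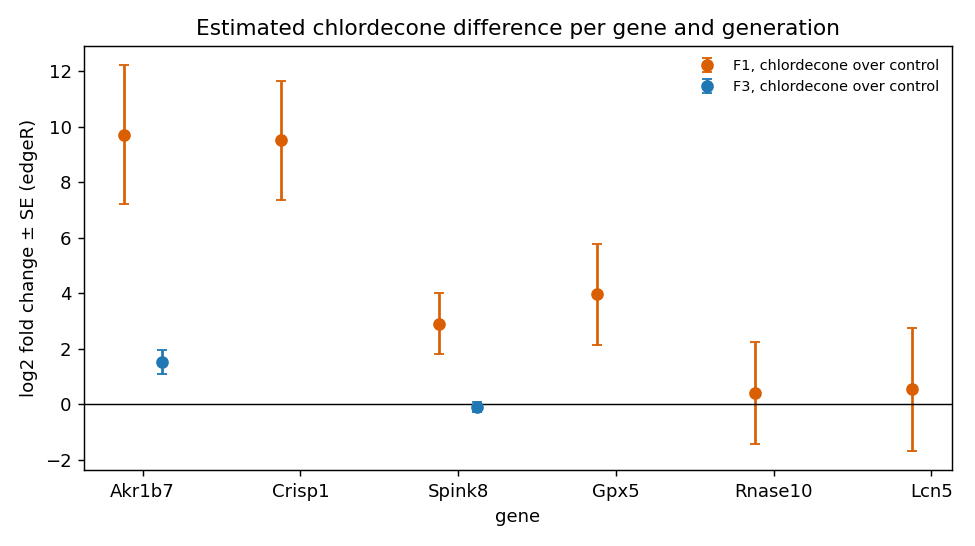
Estimated log2 fold change of chlordecone over control (points, with the standard error derived from edgeR's F statistic as bars) for each gene that could be tested in F1 (orange) and F3 (blue). The F1 estimates of Akr1b7 and Crisp1 lie above 9 with standard errors above 2, and the F3 estimates of Akr1b7 and Spink8 are 1.53 and -0.09.

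In F3, Akr1b7 and Crisp1 were close to 0 in both groups. Akr1b7 had 10, 4 and 16 counts in controls 1, 2 and 3 and 36, 27 and 26 in chlordecone 1, 2 and 3. In CPM these were 0.106, 0.0566 and 0.133 in controls and 0.323, 0.314 and 0.245 in chlordecone libraries. All chlordecone libraries lay above all controls, as for 8.34% of all genes. The log2 fold change was 1.53 (SE 0.45), with an unadjusted p of 0.00856 and an adjusted p of 0.389 in edgeR's quasi-likelihood test over 16766 genes, and 0 of the 2 members tested passed the threshold that 0.0596% of all genes passed. In DESeq2 0 passed as well, and 1.28% of all genes did. At an unadjusted p under 0.05 there was 1, Akr1b7, and 4.97% of all genes were higher at that level. The gene passed the filter of 0.0989 CPM through 2 controls and all 3 chlordecone libraries. Its antisense neighbour Gm13857 had 0 counts in the F3 controls and 3, 1 and 1 in chlordecone 1, 2 and 3, and since the strand setting of the counting is not given in the sources used here, reads of the pair are uncertain.

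Crisp1 had 2, 2 and 0 counts in F3 controls and 2, 0 and 3 in chlordecone libraries, in libraries where 3 counts are 0.0249 to 0.0424 CPM, and it was too low to be tested. Rnase10 had 0 counts in the 3 controls and 0, 1 and 5 in chlordecone libraries and was not tested either. A difference between the groups was not detectable at this depth for this pair of genes.

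Spink8 was between 255 and 410 CPM in F3. Its level was 289, 410 and 291 CPM in controls 1, 2 and 3 and 350, 255 and 324 CPM in chlordecone 1, 2 and 3. The groups overlapped, and the log2 fold change was -0.09 (SE 0.19, adjusted p = 0.868, edgeR). The sign turned without control 2 (0.08) and without chlordecone 2 (0.03). Per kilobase of exon, Spink8 was at 402 ± 84.4 CPM in F3 controls (SD, n = 3), Akr1b7 at 0.0768 ± 0.0302 and Crisp1 at 0.0116 ± 0.0104. Every F3 library thus held at least 21922 Spink8 counts beside at most 36 of Akr1b7, 3 of Crisp1 and 5 of Rnase10. As a marker of vas deferens or epididymis, Spink8 went against the other genes there.

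The effects in both generations were compared with an interaction term over all 11 libraries, for the 16980 genes present in both tables that passed the filter. The F1 effect exceeded the F3 effect by 8.11 on the log2 scale for Akr1b7 (SE 2.26, unadjusted p = 0.00326, adjusted p = 0.0995, edgeR), by 2.90 for Spink8 (SE 1.05, adjusted p = 0.178) and by 9.23 for Crisp1 (SE 4.77, adjusted p = 0.352). For Rnase10 the estimate was -3.09 (SE 2.23, adjusted p = 0.530), in the other direction. Crisp1 and Rnase10 failed the filter in F3 and entered this comparison through F1 libraries, and with 0 to 5 counts in F3 their estimates have no F3 effect to rest on. None of the 4 passed, while 0.718% of all genes did, and at an unadjusted p under 0.05 there were 2, Akr1b7 and Spink8, beside 16.9% of all genes. DESeq2 called Akr1b7 (adjusted p = 0.00349) and Crisp1 (adjusted p = 0.00517), the latter with the same limit, among 6.9% of all genes. Without F1 chlordecone 2 edgeR called 3, Akr1b7, Crisp1 and Spink8, among 13.8% of all genes. The tables were made in different ways, so levels set side by side across generations are descriptions. In that sense Akr1b7 was at 15.3 and 14.8 CPM in F1 controls and at 0.0984 ± 0.0387 CPM in F3 controls (SD, n = 3). Spink8 was at 157 and 164 CPM in F1 controls and at 330 ± 69.3 CPM in F3 controls.

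Other secretory genes of the epididymis and vas deferens were read from a list of 46. In F1, 30 were in the table and 20 were tested, of which 0 passed in either direction with edgeR, 7 being higher and 0 lower at an unadjusted p under 0.05 (7.93% and 3.6% of all genes). Of those 7, 2 (Rnase12 and Wfdc9) passed the filter only through chlordecone libraries and had to be higher there. The median log2 fold change was 1.01. It cannot be compared with the 0.025 over all genes, because 3 of the 20 passed the filter only through chlordecone libraries. The most abundant was Cd52, which coats sperm and is also found on lymphocytes, at 88.9 and 71.6 CPM in controls and 1292, 112 and 611 CPM in chlordecone 1, 2 and 3. Glb1l2, a galactosidase-like protein, was at 9.64 and 8.11 CPM in controls and 439, 16.8 and 169 CPM in chlordecone libraries. Both had the order of Akr1b7, with chlordecone 1 highest and chlordecone 2 nearest to the controls. Spink10 was at 2.83 and 3.14 CPM in controls and 18.4, 10.4 and 48.3 CPM in chlordecone libraries (adjusted p = 0.187), with chlordecone 3 highest. Spink11 was at 55.8 and 45.0 CPM in controls and 63.1, 59.8 and 28.0 CPM in chlordecone libraries, and its groups overlapped. In F3, 12 of 46 were tested and 0 passed, 1 being higher and 1 lower at an unadjusted p under 0.05 (4.97% and 5.64% of all genes), with a median of -0.27 against -0.009 over all genes.

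Beta defensins of the epididymis, small antimicrobial peptides that also bind sperm, were read from a list of 30. In F1, 13 had a row and 9 were tested, with 0 past the threshold in edgeR. At an unadjusted p under 0.05 there were 7 higher and 1 lower (7.93% and 3.6% of all genes), and 5 lay above both controls in all chlordecone libraries (16.2% of all genes). Of the 7, 6 passed the filter only through chlordecone libraries, and the 1 lower only through controls, so their direction was fixed by the filter. The exception was Defb42, and the rest of the 5 above both controls were among those 6. The median log2 fold change of the list was 7.35, or 3.88 when the 3 genes with 0 counts in both controls were set to their lower bound against 3 counts per library. Since the filter fixed the direction of most of these genes, neither median can be compared with that of all genes. Defb42 was at 0.314 and 0.844 CPM in controls and 115, 52.7 and 399 CPM in chlordecone 1, 2 and 3 (adjusted p = 0.0713). Its chlordecone 2 level lay well above both controls, beside smaller values there for Defb43 (0 and 0.0469 CPM in controls, then 87.2, 0.218 and 37.9 CPM) and Defb30 (0.262 and 0.0469 CPM, then 50.8, 0.491 and 17.8 CPM). Defb28 had 0 counts in controls and in chlordecone 2, and 175 and 50 counts in chlordecone 1 and 3. In F3 2 of the 30 were tested and 0 passed, with 0 at an unadjusted p under 0.05, and the summed level of the list was 0.580 to 1.87 CPM.

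Markers of other cells and organs differed between the same F1 libraries. Smooth muscle genes, 12 of 12 with estimates above 0, summed to 6109 to 6154 CPM in controls and to 16745, 7633 and 10793 CPM in chlordecone 1, 2 and 3. Seminal vesicle genes summed to 137022 to 138491 CPM in controls and to 195911, 436292 and 537325 CPM in chlordecone libraries. Of these 9 genes, 5 had estimates above 0 and 4 below, with a median log2 fold change of 0.024, so the sum does not describe each of them. Prostate products summed to 153528 to 162951 CPM in controls and to 115731, 74645 and 117748 CPM, and 7 of the 11 tested were below both controls in all chlordecone libraries, as were 15.1% of all genes. Sperm and spermatid genes summed to 39.7 and 47.5 CPM in controls and to 17.7, 47.5 and 22.9 CPM, so they were lowest in chlordecone 1 and 3.

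Several of these lists had members with estimates in opposite directions, so that their sums follow the most abundant gene. Markers of the steroid-making cells of the testis and adrenal cortex, which also express Akr1b7, summed to 10.3 and 14.1 CPM in controls and to 98.1, 37.4 and 48.8 CPM in chlordecone 1, 2 and 3. Of the 6 tested, 3 had estimates above 0 and 3 below. Scarb1, a lipoprotein receptor found in many tissues, was at 5.82 and 6.75 CPM in controls and 60.8, 8.23 and 22.4 CPM in chlordecone libraries. Cyp21a1, the steroid 21-hydroxylase, had 0 counts in controls and 886, 366 and 465 counts in chlordecone libraries, and the steroidogenic regulator Nr5a1 was at 2.67 and 3.47 CPM and then 0.396, 2.78 and 0.460 CPM. The adrenal Cyp11b1 had 25 counts in chlordecone 2 and 0 in every other F1 library.

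Clear cell genes, which belong to the acid-secreting cells of the duct, summed to 168 to 184 CPM in controls and 139 to 185 CPM in chlordecone libraries, with 5 estimates above 0 and 3 below. The most abundant, Atp6v1c2, was at 178 and 156 CPM in controls and 126, 99.8 and 110 CPM in chlordecone libraries. Atp6v1g3 was at 0 and 0.281 CPM in controls and 15.2, 16.2 and 36.1 CPM in chlordecone libraries, and the regulator Foxi1 was at 0.314 and 0.0469 CPM and then 9.19, 7.47 and 18.4 CPM. These passed the filter only through chlordecone libraries, with an adjusted p of 0.0629 and 0.0812 in edgeR. Their chlordecone 2 levels also lay above both controls by a wide margin. Atp6v1b1 was at 3.35 and 5.06 CPM in controls and 2.38, 8.72 and 7.78 CPM in chlordecone libraries, and its groups overlapped.

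Urothelial genes summed to 130 to 165 CPM in controls and 93.2 to 146 CPM in chlordecone libraries, most of it Foxa1. At an unadjusted p under 0.05 there were 4 of the 8 higher and 1 lower (7.93% and 3.6% of all genes). Of the 4, 2 passed the filter only through chlordecone libraries. Upk3b was at 0.210 and 0.0937 CPM in controls and 7.36, 0.327 and 23.3 CPM in chlordecone 1, 2 and 3, and Upk1a was at 1.73 and 0.656 CPM and then 13.0, 2.51 and 13.2 CPM. Upk3b and Upk1a were highest in chlordecone 1 and 3, the libraries high in Akr1b7. The more abundant Upk1b was at 23.4 and 18.1 CPM in controls and 20.4, 9.27 and 23.2 CPM in chlordecone libraries, and its groups overlapped. Of the 8 urothelial genes, 5 had estimates above 0 and 3 below. Regulators of the Wolffian duct, from which the epididymis and vas deferens form, summed to 3263 to 3301 CPM in controls and to 1489 to 1815 CPM in chlordecone libraries, most of it Gata3. Of the 14, 6 were higher and 1 lower at an unadjusted p under 0.05 (7.93% and 3.6% of all genes), and the 1 lower was Gata3. Estimates were above 0 for 8 and below 0 for 6. Emx2 was at 1.21 and 5.81 CPM in controls and 43.0, 5.67 and 36.6 CPM in chlordecone libraries, and Hoxd9 at 3.72 and 5.25 CPM and then 18.6, 14.4 and 19.3 CPM. Emx2 stood out in chlordecone 1 and 3, and Hoxd9 in all chlordecone libraries. Hoxa10, second to Gata3 in abundance, was at 53.4 and 39.3 CPM in controls and 52.3, 39.0 and 43.8 CPM in chlordecone libraries, and its groups overlapped.

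With edgeR 1 gene of these lists passed in F1, Cyp21a1 (adjusted p = 0.0163), which entered the test only through chlordecone libraries. In F3 it was 1 as well, the urothelial Upk1a (adjusted p = 0.0102). Of the seminal vesicle genes in F3, 8 of 8 tested had estimates below 0, 4 of them at an unadjusted p under 0.05 (5.64% of all genes were lower at that level), with a median of -1.72. Their sum of 7463 to 10618 CPM was nearly all 9530002B09Rik, and Svs4 was at 26.0, 43.7 and 6.5 CPM in F3 controls and 8.65, 9.41 and 6.10 CPM in chlordecone libraries. Their part in the levels of Akr1b7 and Crisp1 was not tested, and in bulk tissue more cells of a type and more RNA per cell cannot be told apart.

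**Figure D4:**
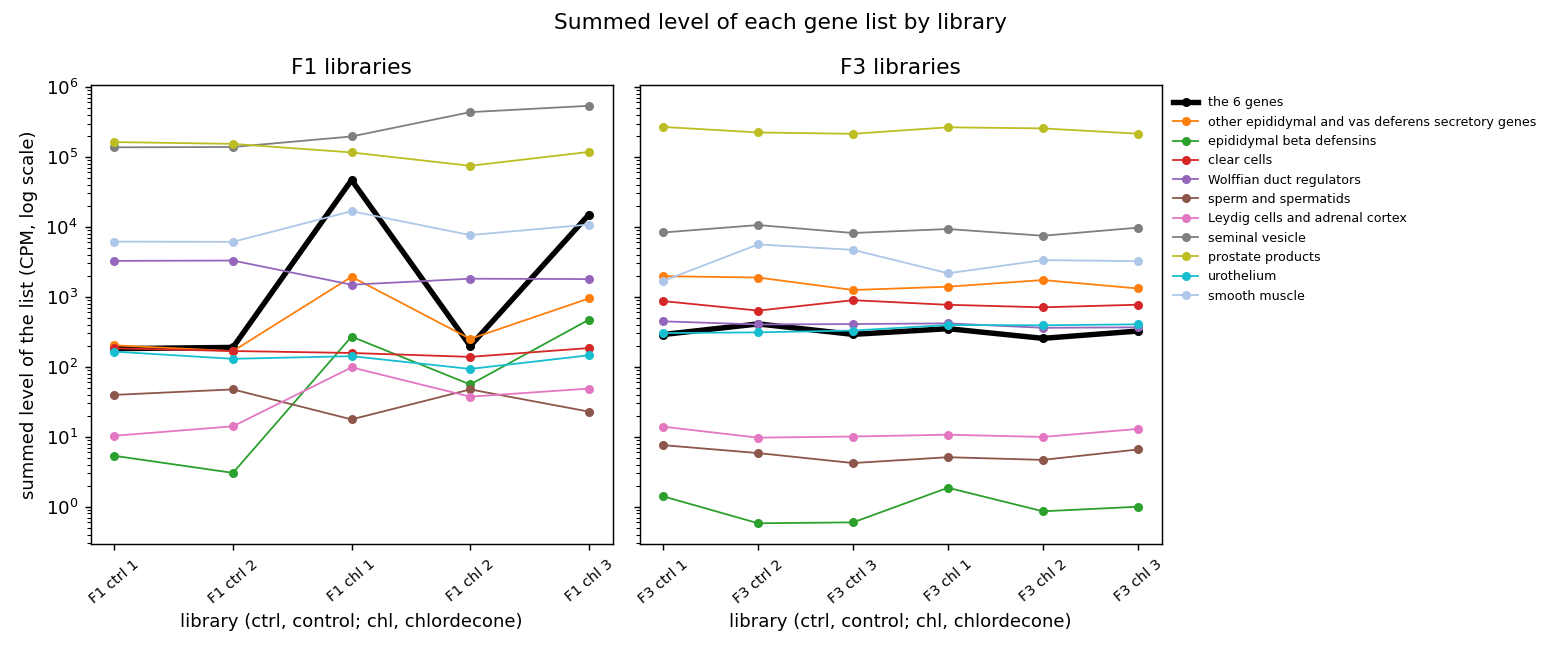
Summed level of each gene list (CPM, log scale) by library in F1 (left) and F3 (right). The 6 genes (black) sum to 182 and 189 CPM in F1 controls, 46755 CPM in chlordecone 1, 198 CPM in chlordecone 2 and 14967 CPM in chlordecone 3, and the 4 in the F3 table sum to 255 to 410 CPM.

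Genes with a pattern like these were ranked by the root mean square difference of their log2 CPM profile, centred on the mean, over the 5 F1 libraries. Among 14489 genes, the 8 closest to the mean profile of the 6 genes were P2rx1, Eddm3b, Glb1l2, Pla2g4a, Adora1, Upk3a, Adtrp and Itga2, with differences of 0.205 to 0.383. P2rx1, an ATP-gated channel of smooth muscle, was at 3.51 and 3.23 CPM in controls and 93.5, 6.33 and 82.4 CPM in chlordecone 1, 2 and 3. Eddm3b, an epididymal secretory protein, was at 0.314 and 0.187 CPM in controls and 13.6, 0.60 and 5.75 CPM in chlordecone libraries. All 8 had no call, with adjusted p from 0.197 to 0.297 in edgeR.

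Because the mean profile is damped by the genes at low counts, the ranking was repeated after the data were seen with Akr1b7 alone as the reference. The closest were then Ptgs2, Defb43, Serpina1f, Crygc, Ly6f, Abcg2, Rnase12 and Aqp9, with differences of 0.506 to 1.39. Ptgs2, the inducible cyclooxygenase of prostaglandin synthesis, was at 2.67 and 3.51 CPM in controls and 3070, 3.16 and 1002 CPM in chlordecone 1, 2 and 3. Abcg2, an efflux transporter, was at 3.93 and 3.56 CPM in controls and 1333, 13.0 and 427 CPM. Serpina1f, a serpin, was at 1.05 and 1.45 CPM and then 1045, 1.47 and 276 CPM. Aqp9, a water and glycerol channel, was at 0 and 0.141 CPM and then 35.4, 0 and 11.6 CPM. With a prior count of 0.5 in place of 2 on the log2 scale, 6 of these 8 were again among the closest, and Abcg2 and Aqp9 were not. In each of the 8, chlordecone 1 was highest, chlordecone 3 next and the other libraries far below. Rnase12 had 0 counts in both controls and in chlordecone 2, beside 18.6 and 7.92 CPM in chlordecone 1 and 3.

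**Figure D5:**
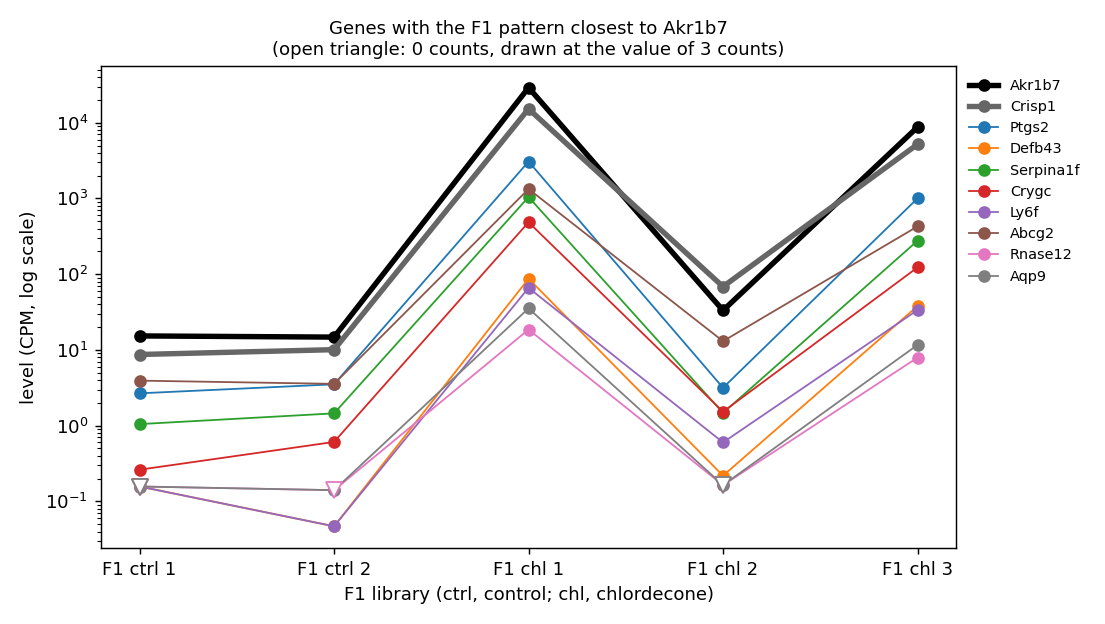
Level (CPM, log scale) of Akr1b7, Crisp1 and the 8 genes with the closest pattern in the 5 F1 libraries; open triangles are 0 counts, drawn at the value of 3 counts. All lines peak in chlordecone 1 and 3, and Crisp1 is above Akr1b7 only in chlordecone 2.

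In F3 the profile of the 4 genes in the table varied little, from -0.39 to 0.59 on the centred log2 scale. Cyp26b1, which degrades retinoic acid, was closest to it, with a difference of 0.0591 over 6 libraries and levels of 0.952, 0.976 and 0.805 CPM in controls and 1.18, 0.999 and 1.64 CPM in chlordecone libraries. The next were Lbhd1, Pigw, Akap7, Serpinb5, Cat, Casc4 and Cd163, with differences up to 0.131. None of the 8 had a call, with an adjusted p of 0.404 or above in edgeR. The profile included Crisp1 and Rnase10, which were too low to be tested in F3. With a prior count of 0.5 in place of 2, only 2 of these 8 were again among the closest, and Cyp26b1 ranked 5th.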

How the data were processed

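Raw read counts by Ensembl gene were deposited, F1 and F3 in separate tables, per the file headers. Per the submitters' processing notes, the build was mm10 and the tools included HTSeq 0.6.1, TopHat2 2.0.14 and DESeq2 1.6.3. The sources used here give no strand setting, annotation release or gene filter. C columns were taken as control and K columns as chlordecone (kepone). F1 control 3 was not analysed here. The F1 table listed genes with a total of at least 20 counts and the F3 table those with at least 1.

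Genes were tested in edgeR 4.0.16 (R 4.3.3): filterByExpr (minimum count 10, minimum total 15), TMM, quasi-likelihood F test, two-sided, within each generation, Benjamini-Hochberg over all genes, threshold 0.05. The interaction used all libraries. The SE of an edgeR estimate was derived as its absolute log2 value divided by the square root of F. Alternatives were DESeq2 1.42.0, its size factors, no filter, a replicate block, 1 joint fit and leaving out each library. The procedure was also run on simulated counts, with no outcome reported here.

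The 6 genes and the 10 context lists were chosen with earlier results of these data known. All 6 were named, and from each list genes among its 4 of highest mean CPM. Akr1b8, Akr1b10 and Crisp3 were named as near copies, and Cyp11b1, Wfdc9 and the genes nearest to Akr1b7 alone were added with their values in view. The 8 genes of nearest profile had a mean of at least 1 CPM, with a prior count of 2.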

Additional observations from a re-analysis of the deposited data

How the results depend on the processing

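The count of the 6 genes past the threshold in F1, 0 in edgeR, was 2 with DESeq2, 2 with the replicate block, 2 in 1 fit of all libraries and 0 to 3 when each library was left out in turn. The count over all F1 genes, 5, was 21 with no filter, 700 with DESeq2, 322 with the replicate block, 930 in 1 fit of all libraries, 0 to 2604 when each library was left out and 1226 without chlordecone 1 and 3. In F3 the count of the members stayed at 0, and that over all genes, 10, was 38 with no filter, 230 with DESeq2, 2 in 1 fit of all libraries and 7 to 41 when each library was left out. The count of members whose effect differed between generations, 0, was 2 with DESeq2 and 0 to 3 when each library was left out. When each library was left out in turn the log2 fold change ran from -0.56 to 6.59 for Rnase10, from -0.44 to 6.33 for Lcn5, from 2.98 to 8.20 for Gpx5 and from 1.81 to 3.44 for Spink8 in F1, from 1.78 to 3.41 for the interaction of Spink8, from -0.19 to 0.083 for Spink8 in F3, and from -4.42 to 4.58 for the interaction of Rnase10, where counts of 0 leave the estimate without meaning. Spink8 in F1 turned to -0.77 without chlordecone 1 and 3. None of these had a call in the full fit, and the cause was not tested.

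The labels do not say that a replicate number marks a shared origin. The r of deviations between same-numbered libraries was 0.048 and 0.058 in F1, where 2 controls mirror each other and the values carry little, and 0.131, 0.002 and 0.002 in F3, where not every library correlated best with its own number. The pairing was therefore not used. With the replicate block, which leaves F1 chlordecone 3 out of the estimate, the F1 log2 fold change was 6.03 for Akr1b7 (adjusted p = 0.000867, edgeR) and 6.76 for Crisp1 (adjusted p = 1.08e-07). The 8 genes closest to the mean profile were the same 8 in F1 with a prior count of 0.5, 6 of 8 for the ranking on Akr1b7, and 2 of 8 in F3. Leaving out an F1 control, or all but 1 chlordecone library, assumes that the lone library varies like the others. With 2 controls and 3 chlordecone libraries whose Akr1b7 counts run from 609 to 734044, the spread within the group limits F1. Counts of 36 or fewer limit F3 for Akr1b7, Crisp1 and Rnase10, and not for Spink8.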
